A study of Mus musculus with 23 samples.

Results

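Amyloid, tau and Alzheimer-linked genes were followed in the hippocampus of middle-aged and young mice. The genes were App, Aplp1, Aplp2, Psen2, Bace1, Mapt, Apoe and Clu, and every probe set, a group of oligonucleotide probes on the array, annotated to 1 of these symbols alone was taken. Of the 8 genes, 7 were found among the 8251 genes that the array names, by 12 of its 12488 probe sets, and Bace1 was not analysed here. Total RNA came from the whole hippocampus of 23 male mice of the strain C57BL/6JNIA, 14 aged 15 months and 9 aged 2 months, with 1 array per mouse. Mice of both ages had learned the Morris water maze, a spatial memory task, with a visible platform for 2 days and a hidden one for 7 days. The strain carries its own App, Mapt and Apoe genes, and the labels name no transgene, mutation or drug. The comparison asks which transcripts differ between 15 and 2 months of age.

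App encodes the amyloid precursor protein, a neuronal membrane protein, and Aplp1 and Aplp2 encode its close relatives, which lack the amyloid-beta stretch. The amyloid-beta peptide is cut from the precursor first by the beta-secretase, encoded by Bace1, and then by the gamma-secretase, a complex whose catalytic subunit is a presenilin such as that encoded by Psen2. Mapt encodes tau, which binds axonal microtubules and forms tangles in Alzheimer's disease. Apoe and Clu encode apolipoproteins that are secreted largely by astrocytes, carry lipid in the brain and bind amyloid-beta, and variants of both human genes are linked to the risk of the disease. Mice with only their own App gene are not known for amyloid plaques in middle age.

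Each value was a linear MAS5 signal, the scanner software's summary of a probe set. A mean signal above 91.7 was required for testing, which 7453 of the 12422 probe sets other than controls met, 9 of them from the genes described here. Of 10 genes chosen as markers of hippocampal neurons, 7 were found on the array, and 6 of these were bright enough to be tested. Of 12 general neuronal markers, 9 were found and 8 of these were bright enough. The 99th percentile of the array lay between 6622 and 8678 in 15-month mice and between 6812 and 8109 in 2-month mice, and it was lowest on 4 arrays, those of 15-month replicates 3 and 12 and of 2-month replicates 7 and 8. The median correlation of an array with the rest was lowest for 15-month replicate 13, at 0.947. The labels name each sample a biological replicate and give no batch, and the running numbers in the titles do not overlap between the ages, so that handling order and age cannot be told apart.

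None of the amyloid, tau and apolipoprotein genes was detectably different between the ages. Of their 9 tested probe sets, 0 passed the limma test at a false discovery rate of 0.05, where 0.376% of all tested probe sets did (0.335% higher and 0.0403% lower at 15 months). None of the 9 had an unadjusted p under 0.05, where 12.4% of all tested probe sets did (5.89% higher and 6.51% lower). An exact Mann-Whitney test across all tested probe sets also called 0 of the 9. Their log2 changes lay between -0.13 and 0.10, with a median of 0.02, beside a median of -0.02 over all tested probe sets, and their adjusted p-values in limma lay between 0.569 and 0.992. Over the 9 probe sets the lowest bound of a 95% interval was 0.793-fold, for a Mapt probe set, and the highest 1.32-fold, for Apoe, and the intervals of others, given below, were narrower. In no probe set did the values of the ages separate, as they did in 0.0537% of those tested. Whole tissue was measured, so that fewer cells of a type and less RNA per cell cannot be told apart.

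**Figure D1:**
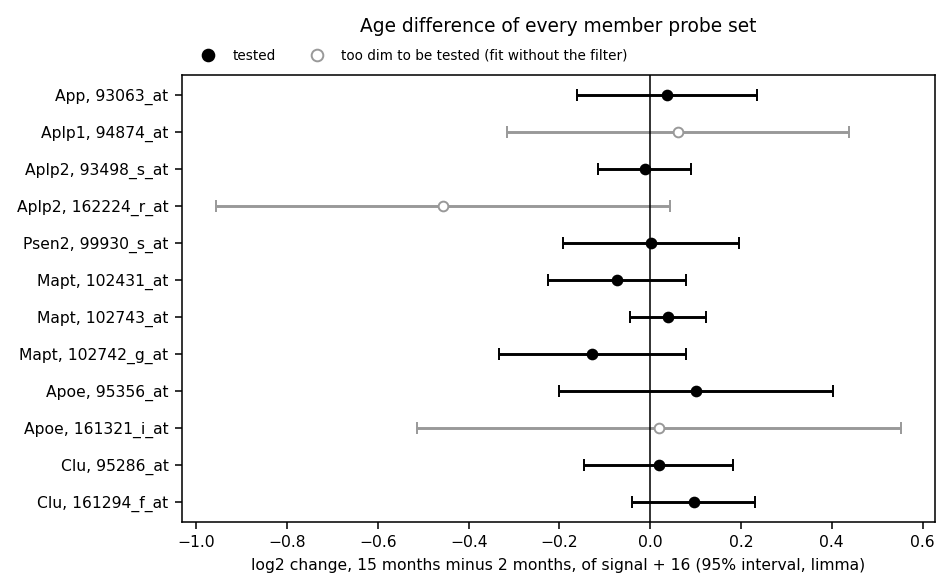
Difference between 15-month and 2-month mice for all 12 probe sets, as log2 change of signal + 16 on the x axis, with 95% intervals from limma as bars. Filled points mark the 9 tested probe sets, whose intervals all include 0, and open points the 3 that were too dim to be tested, shown from a fit without the filter on dim signals.

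**Figure D2:**
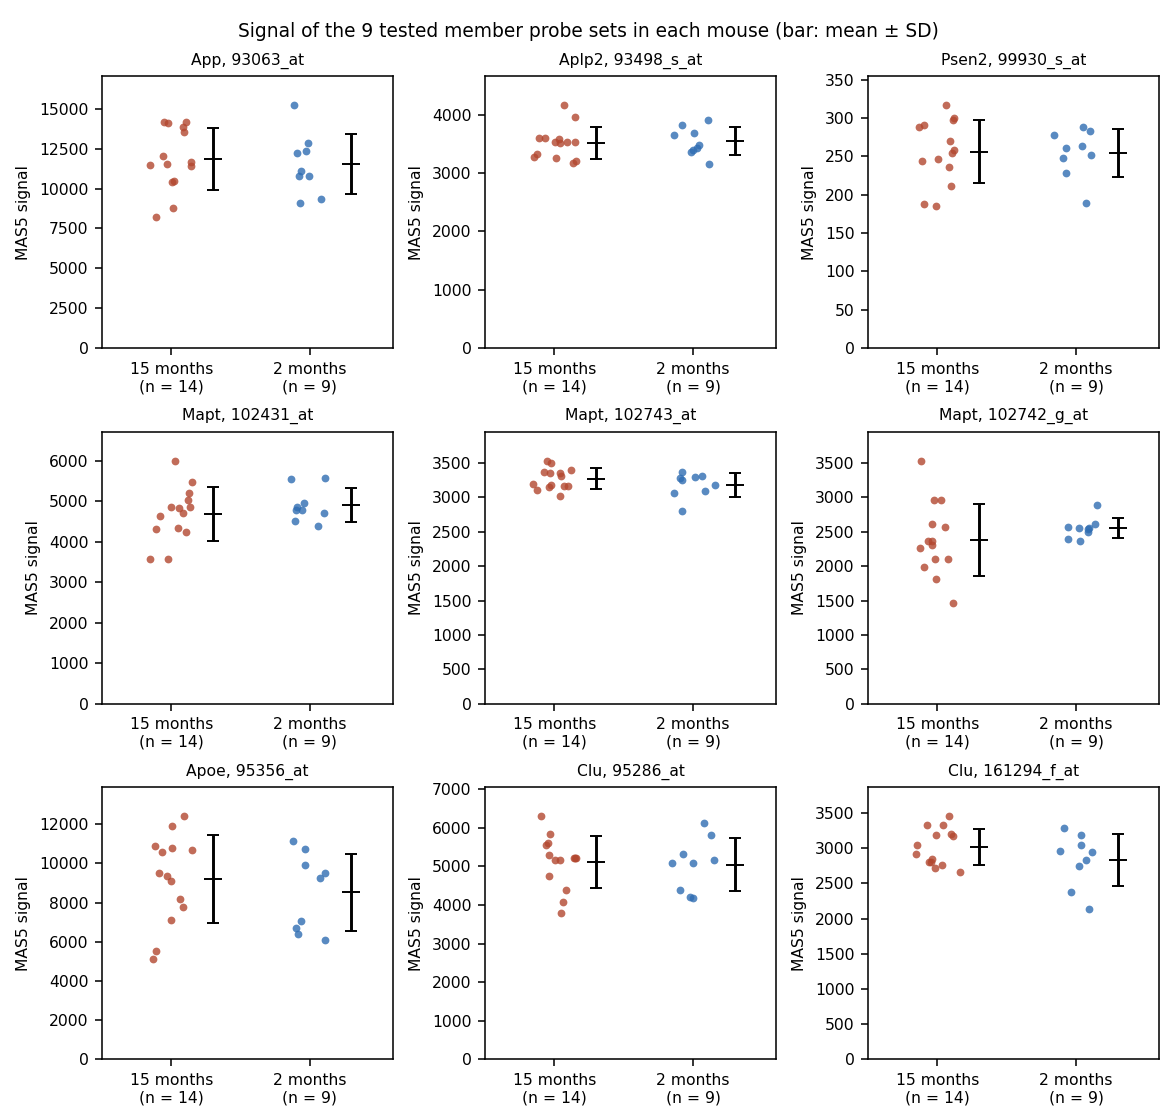
MAS5 signal of each of the 9 tested probe sets (y axis, linear, from 0) in each of the 14 mice of 15 months and the 9 mice of 2 months, 1 point per mouse, with the mean ± SD as a bar. The ages overlap in every panel, and the 15-month mice are spread more widely than the 2-month mice for the Mapt probe set with the suffix _g_at.

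App, measured by 1 probe set, had signals of 8220 at the lowest, 11609 at the median and 14169 at the highest in 15-month mice. In 2-month mice its signals were 9087 at the lowest, 11071 at the median and 15221 at the highest. The ages thus overlapped over nearly their whole range, with 12 of 14 mice of 15 months within the 2-month range. The means were 11845 ± 1959.6 at 15 months and 11524 ± 1895 at 2 months (SD, n = 14 and 9), a log2 change of 0.04 ± 0.10 (SE; limma adjusted p = 0.895). The 95% interval of the fold change was 0.894 to 1.18.

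Aplp2, which encodes the relative of App found in most tissues, was among the least variable of the genes described. Its tested probe set, of a type (_s_at) in which similar transcripts may match the same probes, had a signal of 3178 at the lowest, 3535 at the median and 4160.0 at the highest in 15-month mice. In 2-month mice it had 3153.5 at the lowest, 3474 at the median and 3915 at the highest. Only 3.26% of the tested probe sets had a smaller SD between mice of 1 age. The log2 change of -0.01 ± 0.05 (limma adjusted p = 0.940) came with a 95% interval of 0.924-fold to 1.07-fold, the second narrowest of the 9 after that of a Mapt probe set. A second Aplp2 probe set was dim, with a median of 11.1 in 15-month mice and 27.3 in 2-month mice, and its difference did not pass an exact two-sided permutation test (p = 0.0945). Aplp1, which encodes the neuronal relative, was likewise too dim on its only probe set, at 15.1 ± 10.7 in 15-month mice and 13.5 ± 8.72 in 2-month mice (exact permutation p = 0.749). These dim signals say nothing of a level of the transcript in the tissue. With the second probe set of Apoe below, 3 probe sets were tested in this way, and none had p under 0.05.

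Psen2, the presenilin gene, was measured by 1 probe set, also of the _s_at type. Its signals were 184.9 at the lowest, 256.5 at the median and 316.5 at the highest in 15-month mice, and 188.8 at the lowest, 261.0 at the median and 287.7 at the highest in 2-month mice. The lowest values of both ages were close, and the highest 2-month mouse was exceeded by 5 of the 15-month mice. The means of 256 ± 41.2 at 15 months and 254 ± 30.8 at 2 months were nearly equal, with a log2 change of 0.00 ± 0.09 (limma adjusted p = 0.992) and a 95% interval of 0.876-fold to 1.15-fold.

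Mapt was measured by 3 probe sets, and these differed from each other in how much they varied among the older mice. The brightest of them and the one with the suffix _g_at were designed on the same tau sequence entry and the other on a separate entry, per the platform annotation. The brightest had signals of 3572 at the lowest, 4767 at the median and 5998.5 at the highest in 15-month mice, against 4377 at the lowest, 4781 at the median and 5569 at the highest in 2-month mice. Its log2 change was -0.07 ± 0.07 (limma adjusted p = 0.721), and 5 of 14 mice of 15 months lay below the lowest 2-month mouse. The probe set of the separate entry was the steadiest, with signals of 3013 at the lowest, 3247 at the median and 3530.0 at the highest in 15-month mice, and 2805 at the lowest, 3245 at the median and 3362 at the highest in 2-month mice. Its log2 change was 0.04 ± 0.04 (limma adjusted p = 0.729), with a 95% interval of 0.970-fold to 1.09-fold, and only 0.148% of tested probe sets varied less within an age.

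The third tau probe set, that with the suffix _g_at, ranged widely in 15-month mice, at 1471 at the lowest, 2338 at the median and 3533 at the highest. In 2-month mice it lay between 2366 and 2893 with a median of 2557. Of the 14 mice of 15 months, 8 were below the lowest 2-month mouse, 3 were above the highest and 3 lay between them. The means did not pass the test, at 2388 ± 524 for 15-month mice and 2556 ± 150.3 for 2-month mice (log2 change -0.13 ± 0.10, limma adjusted p = 0.633). The SD of the log2 values was 0.32 at 15 months and 0.08 at 2 months, a ratio of 3.85. This ratio was looked at after the values were seen and is given with no test. Only 20 of the 7453 tested probe sets had a ratio that large or larger, and the median ratio over all of them was 1.08. It was 3.20 to 6.28 when each array in turn was left out, 3.28 after quantile normalisation and 2.62 without both the lowest and the highest 15-month mouse. The ratio was 1.75 for the brightest Mapt probe set and 0.828 for that of the separate entry.

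**Figure D3:**
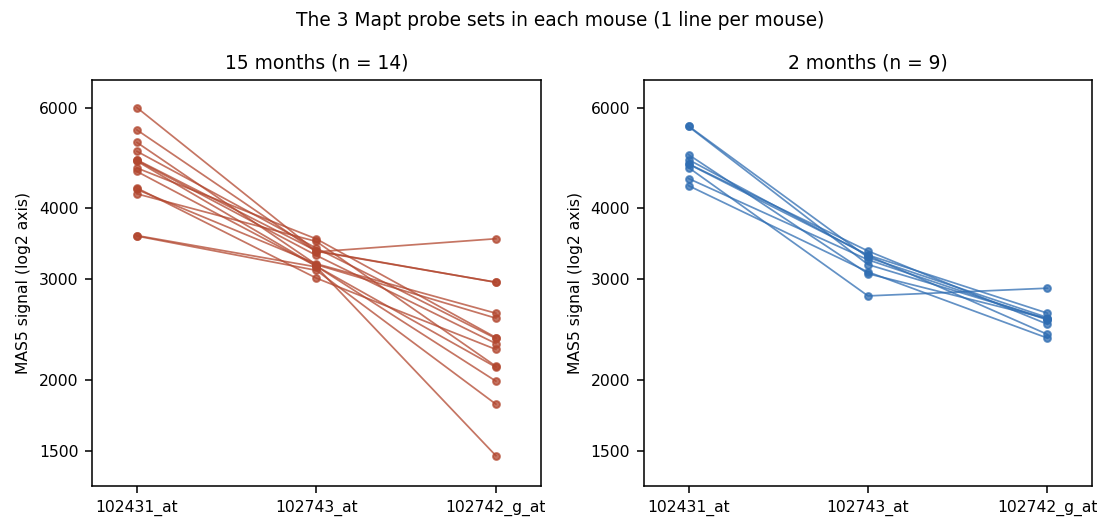
MAS5 signals of the 3 Mapt probe sets (x axis) on a log2 axis (y), with 1 line per mouse, for the 14 mice of 15 months on the left and the 9 mice of 2 months on the right. The 15-month lines fan out at the probe set with the suffix _g_at, between 1471 and 3533, while the 2-month lines stay between 2366 and 2893; heights of different probe sets cannot be set against each other.

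Both probe sets of the shared tau entry moved together among the older mice. Over the 14 mice of 15 months they were correlated with Pearson's r = 0.812 (permutation p = 6.0e-04, adjusted p = 0.00480 over 8 relations within genes) and Spearman's rho = 0.763 (permutation p = 0.00220, adjusted p = 0.0176). Without the 2 mice farthest from the median r was 0.709. Over the 9 mice of 2 months r was 0.139 and rho 0.25 (exact p = 0.734 and 0.521, adjusted p = 0.839 and 0.780), and the difference between the ages was not tested. The probe set of the separate entry did not pass with either. Its r at 15 months was 0.413 with the brightest and 0.405 with that of the suffix _g_at (permutation test, adjusted p = 0.301 for both). At 2 months these were 0.196 and -0.618 (exact test, adjusted p = 0.830 and 0.301). The low mice on both probe sets of the shared entry were 15-month replicates 5 and 7, with 3572 and 3579 on the brightest and 1812 and 1471 on that with the suffix _g_at. These mice also had the highest choroid plexus marker scores of their age, described below, at 1.06 and 1.86. Replicate 7 had the lowest neuronal score of its age, at -0.18. Replicate 11, with a choroid plexus score of 1.05, had 5028.5 on the brightest. A part of tissue content in the spread of Mapt was not tested. Probe sets of 1 gene were set against the brightest of that gene by an exact permutation test of the within-mouse log2 ratio, and no difference in age change passed. For the 3 pairs in which both probe sets were tested, 2 of Mapt and 1 of Clu, the adjusted p-values were 0.413 to 0.464 over these pairs, and 0.344 to 0.580 over 5 pairs that include the dim probe sets of Aplp2 and Apoe, from which nothing is read. For the probe set of the separate entry against the brightest of Mapt that ratio averaged -0.51 ± 0.19 in 15-month mice and -0.62 ± 0.13 in 2-month mice (exact p = 0.138, adjusted p = 0.413 over the 3 pairs).

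Apoe, the lipid carrier made mainly by astrocytes, varied most between mice among the brightest probe sets of the genes described. On its tested probe set the signals were 5148 at the lowest, 9421 at the median and 12402 at the highest in 15-month mice, and 6086 at the lowest, 9235 at the median and 11139 at the highest in 2-month mice. The ages overlapped widely, with 10 of 14 mice of 15 months within the 2-month range. The means were 9211 ± 2229 at 15 months and 8532 ± 1968 at 2 months, a log2 change of 0.10 ± 0.15 (limma adjusted p = 0.815) with a 95% interval of 0.870-fold to 1.32-fold. Its within-age SD of 0.37 on the log2 scale was above that of 86.7% of tested probe sets. The second Apoe probe set was too dim to be tested, at 20.9 ± 15.6 in 15-month mice and 21.5 ± 20.6 in 2-month mice (exact permutation p = 0.947).

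Clu, which encodes the chaperone-like apolipoprotein clusterin, was measured by 2 tested probe sets. The brighter had signals of 3787 at the lowest, 5214 at the median and 6294 at the highest in 15-month mice, and 4189 at the lowest, 5083 at the median and 6126.5 at the highest in 2-month mice. Its log2 change was 0.02 ± 0.08 (limma adjusted p = 0.941). The other, of a type (_f_at) that can match a family of similar sequences, had signals of 2658 at the lowest, 2984 at the median and 3452 at the highest in 15-month mice, and 2142 at the lowest, 2941 at the median and 3294 at the highest in 2-month mice. Its log2 change of 0.10 ± 0.07 had the lowest adjusted p of the 9 tested probe sets (limma adjusted p = 0.569). The probe sets of Clu did not rise and fall together among mice, with r = 0.289 and rho = 0.121 at 15 months (permutation p = 0.316 and 0.683, adjusted p = 0.506 and 0.780) and r = -0.02 at 2 months (exact p = 0.958, adjusted p = 0.958).

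The brightest of these signals moved with the upper end of the array. App exceeded the 99th percentile of its array on 23 of 23 arrays and Apoe on 15, a statement about signal and not about transcript abundance. Apoe was correlated with the 99th percentile at r = 0.938 and rho = 0.842 over 15-month mice (permutation p = 1.0e-05, the smallest that 100000 permutations can give, and 3.7e-04; adjusted p = 1.2e-04 and 0.00444 over 12 relations). Over 2-month mice r was 0.779 and rho 0.733 (exact p = 0.0158 and 0.0311, adjusted p = 0.0300 and 0.121). Without the 2 farthest mice, which are the low arrays named above, r was 0.830 at 15 months and 0.500 at 2 months. For App r was 0.749 at 15 months (permutation p = 0.00312, adjusted p = 0.00982) and 0.757 at 2 months (exact p = 0.0175, adjusted p = 0.0300), but rho was 0.481 and 0.617 (adjusted p = 0.147 for both), and without the 2 farthest mice r was 0.161 and 0.321, so that this relation rests on those mice. Clu on its brighter probe set had r = 0.823 at 15 months and 0.846 at 2 months (adjusted p = 0.00444 and 0.0154), and Aplp2 ran the other way with r = -0.60 and -0.83 (adjusted p = 0.0334 and 0.00982). The rho of Clu was 0.574 and 0.683 and that of Aplp2 -0.37 and -0.68 (adjusted p = 0.121 and 0.121, and 0.283 and 0.121). Without the 2 farthest mice of each age r was 0.503 and 0.808 for Clu and -0.28 and -0.56 for Aplp2. These relations were looked at after the values were seen. With the 99th percentile as a covariate the log2 changes turned sign, to -0.04 for App, -0.04 for Apoe, -0.05 for Clu and 0.02 for Aplp2, with limma adjusted p-values of 0.696 to 0.877.

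**Figure D4:**
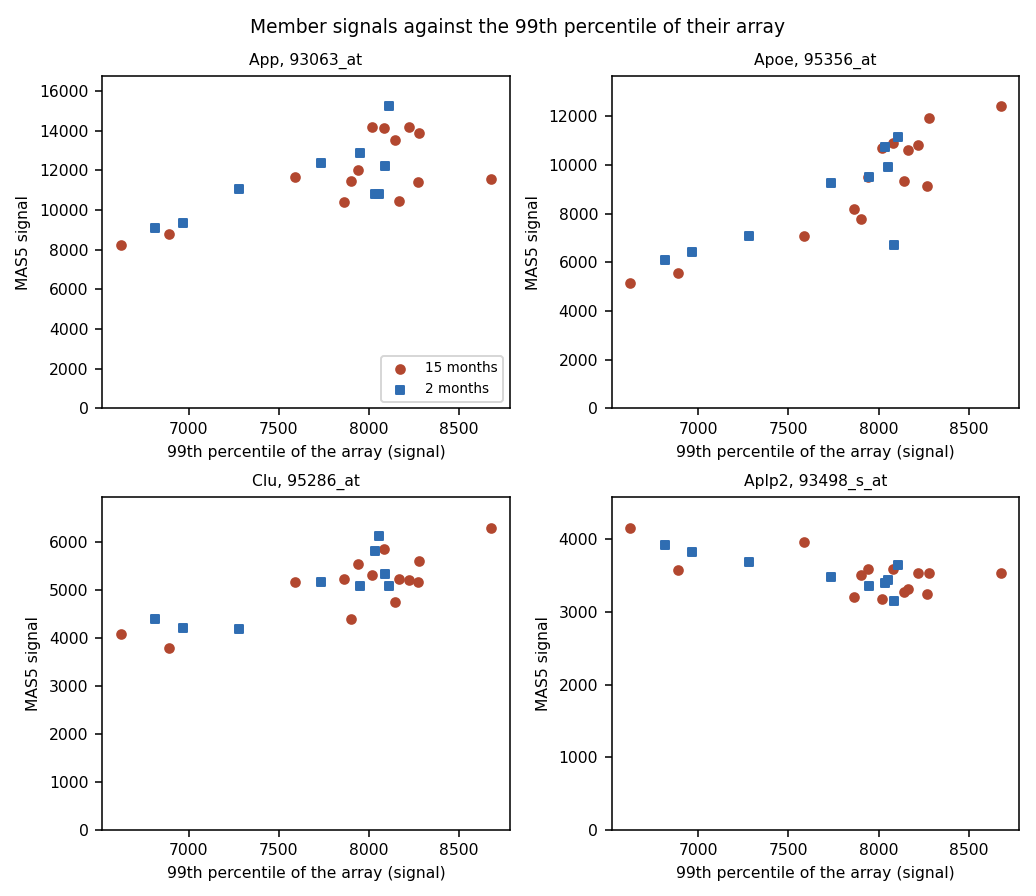
MAS5 signal of App, Apoe, Clu and Aplp2 (y axes, linear, from 0) against the 99th percentile of the same array (x axis), with 15-month mice as circles and 2-month mice as squares. The arrays of lowest 99th percentile hold the lowest App and Apoe signals of both ages, and Aplp2 tends the other way.

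Apoe and Clu, each on its brightest probe set, varied together among 15-month mice, and App with Apoe there on the deposited scale. The second Clu probe set, which did not follow the first, was not set against Apoe. Apoe and the brighter Clu probe set both also followed the 99th percentile of the array over these mice (r = 0.938 and 0.823). Over 15-month mice Apoe and Clu had r = 0.869 and rho = 0.855 (permutation p = 8.0e-05 and 2.0e-04, adjusted p = 0.00240 and 0.00600 over 30 relations between the 6 genes with a tested probe set). Without the 2 farthest mice r was 0.674, and after quantile normalisation, which gives every array the same distribution, it was 0.816. Over 2-month mice r was 0.717 and rho 0.55 (exact p = 0.0417 and 0.133, adjusted p = 0.199 and 0.443), and 0.573 after quantile normalisation. App and Apoe had r = 0.797 and rho = 0.692 over 15-month mice (permutation p = 8.5e-04 and 0.00729, adjusted p = 0.0127 and 0.109), but r = 0.454 without the 2 farthest mice and r = 0.205 after quantile normalisation. Over 2-month mice these genes had r = 0.650 (exact p = 0.0603, adjusted p = 0.201), or 0.176 after quantile normalisation. App and Clu did not pass, with r = 0.651 and rho = 0.525 over 15-month mice (permutation p = 0.0118 and 0.0563, adjusted p = 0.118 and 0.442) and r = 0.361 over 2-month mice (exact p = 0.340, adjusted p = 0.617). No other of the 30 relations had an adjusted p under 0.05.

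Genes marking the cell types that make these transcripts were measured beside them. The astrocyte score, the mean centred log2 value of 11 tested markers, lay between -0.14 and 0.16 in 15-month mice and between -0.25 and 0.00 in 2-month mice, a difference of 0.14 (exact permutation p = 0.00222, adjusted p = 0.0177 over 16 array measures and marker scores). The marker lists were chosen with earlier results of these data known, so the p-value of a score is no independent test. Of these 11 markers only S100b, a calcium-binding protein gene, passed limma's test, and it was higher at 15 months. Gfap had the largest log2 change of the 11 without passing, at 0.45 ± 0.11 on the brightest of its 2 tested probe sets (limma adjusted p = 0.0851). An unadjusted p under 0.05 was found for 4 of the 11, all higher, where 5.89% of all tested probe sets were higher at that level. Log2 changes were above 0 for 9 of the 11 and below 0 for 2, Aqp4 (-0.15, limma adjusted p = 0.541) and Ntsr2 (-0.09, limma adjusted p = 0.419). The signal of S100b was 861 ± 117 at 15 months and 638 ± 99.8 at 2 months (log2 change 0.43 ± 0.09, limma adjusted p = 0.0128), and the call was lost with the exact Mann-Whitney test (adjusted p = 0.0536). Apoe and Clu, both made by astrocytes, had log2 changes of 0.10 and 0.02 beside this. Apoe was correlated with the astrocyte score at r = 0.750 and rho = 0.749 over 15-month mice (permutation p = 0.00325 and 0.00285), which did not pass over the 36 relations computed with scores (adjusted p = 0.117 and 0.103), and at r = 0.329 over 2-month mice (exact p = 0.396, adjusted p = 0.793). Without the 15-month arrays of lowest 99th percentile named above r was 0.610 for Apoe, which also followed that percentile. App had r = 0.679 with the score over 15-month mice (permutation p = 0.00795, adjusted p = 0.143) and r = -0.08 over 2-month mice. Clu on its brighter probe set had r = 0.492 over 15-month mice (permutation p = 0.0692, adjusted p = 0.379). Over 2-month mice its r was 0.630 and rho 0.75 (exact p = 0.0668 and 0.0255, adjusted p = 0.379 and 0.280). That r was 0.242 without the 2 mice farthest from the median score, and 0.904 without the 2-month arrays of lowest 99th percentile. The part of astrocytes in the variation of Apoe was not tested further.

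Scores of other cell types were set beside the same genes. The choroid plexus score, from 6 tested markers, ranged from -0.77 to 1.86 in 15-month mice and from -0.75 to 1.75 in 2-month mice (exact permutation p for the difference = 0.367, adjusted p = 0.619). None of the 6 genes was correlated with it past the adjustment. Mapt on its brightest probe set had r = -0.56 and rho = -0.39 with it over 15-month mice (permutation p = 0.0376 and 0.171, adjusted p = 0.338 and 0.589), and r = -0.02 without the 2 farthest mice, so that the relation rests on those mice. They were 15-month replicates 5 and 7, the low mice on Mapt named above. The oligodendrocyte score, from 7 tested markers, ranged from -0.37 to 0.33 at 15 months and from -0.31 to 0.51 at 2 months (exact permutation p = 0.272, adjusted p = 0.619), and Apoe had r = 0.707 with it over 2-month mice (exact p = 0.0194, adjusted p = 0.232). Over 15-month mice the sign was opposite, with r = -0.22 (permutation p = 0.453, adjusted p = 0.859). The microglia score, from 11 tested markers, was 0.27 higher at 15 months (exact permutation p = 1.2e-05, adjusted p = 1.96e-04), with 4 markers risen, Ctss, Ly86, C1qb and C1qc, by log2 changes of 0.50, 0.62, 0.33 and 0.31 (limma adjusted p = 9.3e-06, 0.00397, 0.00695 and 0.0223). This list too was chosen with earlier results of these data known, so the p-value of its score is no independent test. A second tested C1qb probe set had a log2 change of 0.00 (limma adjusted p = 0.992), and the call of C1qb was lost on the mean of both (adjusted p = 0.325). That of C1qc was lost with the exact Mann-Whitney test (adjusted p = 0.0536) and without 2-month replicate 2 or 3 (0.0546 and 0.0649). An unadjusted p under 0.05 was found for 8 of the 11, all higher, where 5.89% of all tested probe sets were higher at that level. Csf1r, Cx3cr1 and Cd68 on this list had log2 changes of 0.01, 0.01 and 0.02 (limma adjusted p = 0.954, 0.990 and 0.919). Of the neuronal, hippocampal, oligodendrocyte, endothelial, choroid plexus, meningeal, thalamic, striatal and blood markers none passed limma's test. The genes of lowest p on these lists were Camk2a for both neuronal lists (log2 change -0.23), Mog for oligodendrocytes (-0.23), Cdh5 for endothelium (0.48), Folr1 for choroid plexus (0.77), Bmp6 for meninges (0.62), Rora for thalamus (0.17), Penk for striatum (0.23) and Hba-a1 for blood (0.13), with limma adjusted p-values of 0.198 to 0.681. Second tested probe sets had log2 changes of -0.02 for Camk2a (limma adjusted p = 0.983) and 0.07 for Penk (limma adjusted p = 0.905).

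Other genes of the amyloid and tau pathways were not detectably different either. Of 122 genes on 7 lists, 80 were tested, and the rest were not found on the array or were too dim. Of the 80, 0 passed the limma test over all probe sets. At an unadjusted p under 0.05, 10 were higher and 3 lower at 15 months, which is 12.5% and 3.75% of the 80, where 5.89% of all tested probe sets were higher and 6.51% lower. The median log2 change of the 80 genes was 0.01. The lists by role, with 1 probe set per gene, are described next.

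Among 10 secretase genes 5 were found on the array and 4 were tested, with log2 changes between -0.10 and 0.20. Psenen, which encodes the gamma-secretase subunit PEN-2, had the lowest p, with signals of 550 ± 68.0 at 15 months and 475 ± 47.8 at 2 months (log2 change 0.20 ± 0.07, limma adjusted p = 0.242). Of 12 tested genes of App adaptors and sorting 7 had changes above 0 and 5 below 0. Sorl1, a sorting receptor that binds the precursor protein, was at 352 ± 76.6 in 15-month mice and 409 ± 53.6 in 2-month mice (log2 change -0.22 ± 0.11, limma adjusted p = 0.390). Of 7 tested genes of amyloid clearance 6 had changes above 0, with a median of 0.05. The lowest p there was that of Plat, the tissue plasminogen activator, at 1152 ± 339 in 15-month mice and 919 ± 100.7 in 2-month mice (log2 change 0.28 ± 0.13, limma adjusted p = 0.372).

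Of 20 tested tau kinase and phosphatase genes 9 had changes above 0 and 11 below 0, with a median log2 change of -0.04. The largest was that of Dyrk1a, a kinase known to phosphorylate tau, at 1696 ± 360.2 in 15-month mice and 1222 ± 225 in 2-month mice, with 13 of 14 mice of 15 months above the 2-month mean. Its log2 change of 0.46 ± 0.11 did not pass (limma adjusted p = 0.0632), and a second Dyrk1a probe set had a change of 0.04 (limma adjusted p = 0.910). The first fell below 0.05 in limma when single arrays were left out, at 0.0351 for 15-month replicate 1, 0.0181 for 15-month replicate 6 and 0.0161 for 2-month replicate 8. It did so in 3 other settings with 0.0405 to 0.0482, and over all settings the adjusted p lay between 0.0161 and 0.215. Of 13 tested microtubule-associated genes, whose median log2 change was -0.08, 10 lay below 0. Map7, which encodes a microtubule-stabilising protein, had the lowest p and a change in the other direction, at 645 ± 70.2 in 15-month mice and 558 ± 90.2 in 2-month mice (log2 change 0.21 ± 0.08, limma adjusted p = 0.276).

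Of 14 tested genes of apolipoproteins and lipid handling 7 had changes above 0 and 7 below 0, with a median log2 change of 0.00. Abca1, the transporter that loads lipid onto apolipoprotein E, was at 388 ± 50.7 in 15-month mice and 313 ± 50.2 in 2-month mice, above the 2-month mean in 13 of 14. Its log2 change was 0.30 ± 0.09 (limma adjusted p = 0.145), and a second probe set had 0.19 ± 0.18 (limma adjusted p = 0.701). Of 11 tested genes linked to Alzheimer's disease by human genetics 6 had changes above 0 and 5 below 0. Tyrobp, the signalling partner of the microglial receptor Trem2, had the lowest p, with 622 ± 96.4 at 15 months and 513 ± 44.5 at 2 months (log2 change 0.26 ± 0.08, limma adjusted p = 0.179). Tyrobp is also on the microglia list, whose mean score was higher at 15 months.

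**Figure D5:**
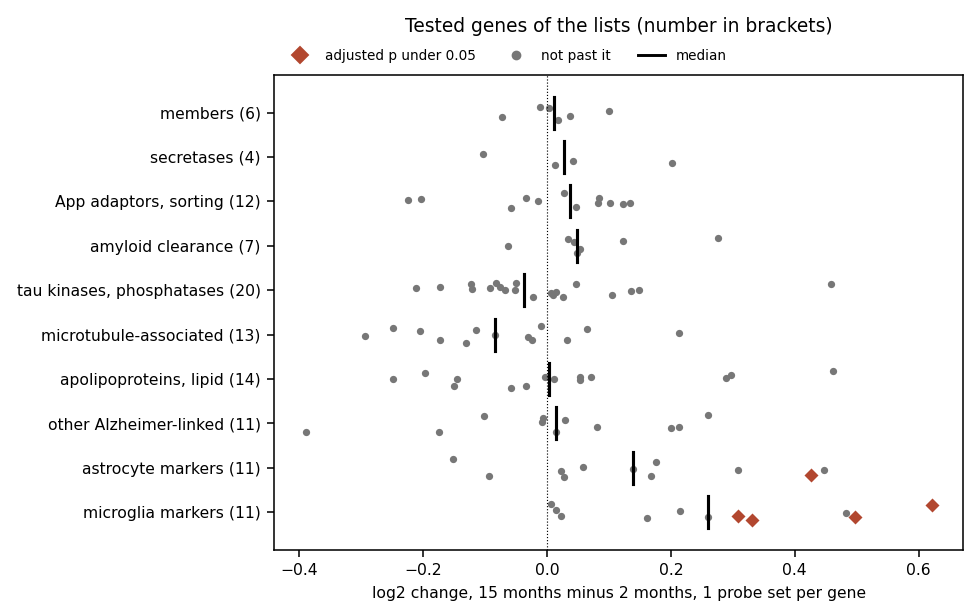
Log2 change between 15-month and 2-month mice (x axis) of each tested gene on the lists, 1 point per gene and 1 list per line, with the median as a vertical bar. No gene of the members or the 7 pathway lists is past an adjusted p of 0.05, while 1 of 11 astrocyte markers and 4 of 11 microglia markers are, drawn as diamonds.

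For each gene the other genes whose signals varied most alike were found by Pearson's correlation over the 23 mice after removal of the mean of each age. Apoe was most like the ribosomal protein genes Rps28 (r = 0.939) and Rps24 (r = 0.933), and 49 genes had r above 0.8 with it. Clu was most like Matr3 (r = 0.922) and Ncdn (r = 0.893), with 33 genes above 0.8. App was most like Plk3 (r = 0.864) and Rnf14 (r = 0.859), which fell to 0.658 and 0.630 over the 19 mice left without the 4 arrays of lowest 99th percentile. Mapt was most like Eif3f (r = 0.806) and Ptpn1 (r = 0.759), Aplp2 like Slc35d1 (r = 0.766) and Ddr1 (r = 0.752), and Psen2 like Mad2l1bp (r = 0.710) and Insl3 (r = 0.708). All of these values share the arrays and their scaling and carry no test. The probe sets of Rps28 and Matr3 were of the _f_at type, which can match a family of similar sequences. Those of Rps24, Plk3 and Insl3 had the suffix _r_at. Rps28 had mean signals of 11823 at 15 months and 11453 at 2 months, and Rps24 of 14241 at 15 months and 13952 at 2 months. Eif3f, at 110 and 165, and Insl3, at 100 and 111, were near the signal of 91.7 required for testing.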

How the data were processed

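The authors deposited 1 intensity for each probe set on each array, unlogged. The submitters' processing notes name MAS5 as the software. Its version and settings were not given in the sources used here. On every array the mean signal after trimming 2% of values at each end was 499.9, so no further normalisation was applied. No 2 arrays shared more than 44 of 12488 values. Gene names came from the platform's annotation table, where 10833 of 12422 non-control probe sets had 1 symbol, 396 several and 1193 none, and no symbol changed through the RefSeq table. No coordinates are given, since the files name no genome build.

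All tests used log2(signal + 16). Fold changes are on that scale and understate changes of dim genes. Probe sets with a mean log2 value above the 40th percentile were tested with limma 3.58.1 in R 4.3.3 (lmFit, eBayes with trend and robust variance), two-sided, 15-month minus 2-month, with Benjamini-Hochberg adjustment over 7453 probe sets. A gene stood for its brightest tested probe set with 1 symbol. Single values were compared by exact two-sided permutation over all 817190 regroupings, and relations between mice within an age by 100000 permutations (14 mice) or all orders (9 mice) (Python 3.11.15, with scipy 1.17.1). The tests were checked on simulated data. Named genes were every member, the gene of lowest p and all called genes of each pathway and cell type list, and the 2 genes most alike to each member by Pearson's correlation. The members and lists were chosen with earlier results of these data known. The number of arrays limits the precision. Replicate numbers only name the mice.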

Additional observations from a re-analysis of the deposited data

Results flagged for a closer look

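Among the 9 mice of 2 months, 18 sets of values were examined for a mouse standing apart from the rest by Dixon's criterion, of which chance gives about 1 in 20, and 3 met it. The Mapt signal of 2-month replicate 4 was 2804.7 on the probe set of the separate sequence entry, below all others of its age, with a gap to the nearest of 0.495 of the range. On the probe set with the suffix _g_at the same mouse had 2893.4, above all others of its age, with a gap of 0.501 of the range. The choroid plexus score of 2-month replicate 2 was 1.75, with a gap of 0.655 of the range. The causes were not tested.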

How the results depend on the processing

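In the 23 fits that each left out 1 array and in 12 other settings, 0 member probe sets passed, the same as with all arrays. The count over all probe sets was 28 and lay between 20 and 39 except with the 25th percentile of the array as a covariate, where it was 60 (39 higher and 21 lower). Changes near 0 turned sign without passing the test: Psen2 with array weights (-0.0186) and with the choroid plexus covariate (-0.0353), Aplp2 without the 4 arrays of lowest 99th percentile (0.00220), and App (-0.0399), Aplp2 (0.0184), Apoe (-0.0366) and Clu on its brighter probe set (-0.0502) with the 99th percentile covariate, which was added once the values were known. Leaving out 1 array gave log2 changes of -0.0463 to 0.0351 for Psen2, -0.0324 to 0.00648 for Aplp2, -0.00381 to 0.0891 for App and -0.0135 to 0.0548 for Clu on its brighter probe set. The causes were not tested. The calls of S100b and C1qc were lost with the Mann-Whitney test (adjusted p = 0.0536 for both), that of C1qc without 2-month replicate 2 or 3 (0.0546 and 0.0649), and that of C1qb with the mean of its probe sets (0.325), the other of which had a log2 change of 0.00. No scaling moved the median of all probe sets by more than 0.01. No paired analysis was possible because the replicate numbers are not from the labels and the mice of both ages differ. Probe sets with signals under 91.7 could not be read as levels.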
